A study of Homo sapiens with 4 samples.

Results

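The Ikaros family, the BCL11 factors and SATB1 are transcription factors and chromatin regulators of developing lymphocytes. They were taken as the rows of the deposited table whose Ensembl identifier carries the symbol IKZF1, IKZF2, IKZF3, IKZF4, IKZF5, BCL11A, BCL11B or SATB1 in GENCODE 29, and all 8 genes had a row among 28274 genes. Messenger RNA was measured by RNA sequencing in J-gammal, a human cell line, with 2 libraries of FYB1 knockdown (titled sh-FYB1) and 2 control libraries. The controls are described as untreated and titled NC, and the labels leave unsaid whether they held any construct, which sequence the knockdown used and which cells the line derives from. The labels name no separate cultures behind the 2 libraries of a group, so the spread that p-values measure may be technical.

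Ikaros proteins bind DNA through zinc fingers near the N terminus and pair with each other through zinc fingers at the C terminus. They recruit the NuRD deacetylase and remodelling complex and other corepressors, and loss of IKZF1 is a known lesion of acute lymphoblastic leukemia. BCL11B is required for commitment to the T lineage, BCL11A represses fetal globin genes in erythroid cells, and SATB1 organises chromatin loops in thymocytes.

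The aligned coding stretch of the fifth C2H2 finger pattern of IKZF1, one of the C-terminal fingers, is shown for the 5 Ikaros family genes to make their likeness and their differences visible. Sequences come from GENCODE 29 transcripts (GRCh38, 5′ to 3′ on the coding strand), and capitals mark bases that differ from IKZF1.
IKZF1: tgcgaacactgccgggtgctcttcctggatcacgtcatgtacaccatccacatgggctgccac
IKZF2: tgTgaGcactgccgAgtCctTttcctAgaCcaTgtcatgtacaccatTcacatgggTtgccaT
IKZF3: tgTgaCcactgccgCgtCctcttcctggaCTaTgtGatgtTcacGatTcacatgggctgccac
IKZF4: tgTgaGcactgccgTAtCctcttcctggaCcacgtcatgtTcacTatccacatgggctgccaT
IKZF5: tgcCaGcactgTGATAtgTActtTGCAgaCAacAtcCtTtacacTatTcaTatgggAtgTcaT
The stretch lies inside 1 exon of each gene, at chr7:50400457-50400519 on the plus strand for IKZF1, chr2:213007462-213007524 on the minus strand for IKZF2, chr17:39765898-39765960 on the minus strand for IKZF3, chr12:56035167-56035229 on the plus strand for IKZF4 and chr10:122993882-122993944 on the minus strand for IKZF5. Of its 63 bases 11 differ between IKZF2 and IKZF1, 11 between IKZF3 and IKZF1, 9 between IKZF4 and IKZF1, and 24 between IKZF5 and IKZF1. Over whole coding sequences IKZF3 matched IKZF1 at 61.1% of aligned bases and IKZF5 matched it at 43.7%. The longest identical run within the family was 26 bases, between IKZF3 and IKZF1. No word of 50 bases was shared between transcripts of any of the 8 genes, so reads of at least that length can be told apart among them, while the sources used here give no read length. At most 2.01% of a gene's words of that length, those of IKZF3, occurred in transcripts of any other annotated gene. BCL11A and BCL11B matched at 69.3% of aligned coding bases, and both coding sequences held 6 C2H2 finger patterns, against none in SATB1.

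The libraries held 16693113 to 20251864 reads, recovered from the deposited values as described with the processing. All 14 T cell marker genes averaged at least 1 FPKM, the unit of the table (fragments or reads per kilobase of exon, scaled to a library total). Their summed level was 1729 and 2193 FPKM in the knockdown libraries and 3179 and 2863 FPKM in the controls. Markers of other blood cells were mixed. PAX5, MS4A1 and CD22 of the B cell list, SPI1, CSF1R, CSF3R, LYZ, MPO and CD33 of the myeloid list, and KLRD1, NCR1 and FCGR3A of the NK list stayed below 0.1 FPKM in all 4 libraries, and no gene of the erythroid and megakaryocyte list with a row did. Of the same lists CD79A averaged 18.2 FPKM over the 4 libraries, CEBPE 60.1 FPKM, CEBPA 4.06 FPKM, PRF1 15.1 FPKM and EPOR 7.81 FPKM. FYB1, the adaptor gene that the knockdown targets, stood at 6.18 and 4.53 FPKM in the knockdown libraries, against 17.6 and 20.1 FPKM in the controls. It was called lower by limma-trend on log2(FPKM + 1) (adjusted p = 0.0398) and by limma-voom on recovered reads (adjusted p = 0.000419). The limma-trend call ended without knockdown 1 and without knockdown 2, as did every limma-trend call in those settings. The log2 fold changes of FYB1 were then -1.84 and -1.46. By limma-voom they lay between -2.05 and -1.60 without any 1 library.

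Across the 8 genes, IKZF3 was the single gene whose rise passed a test, and as fitted without a block it passed limma-voom on recovered reads but not limma-trend. IKZF1 and IKZF2 were higher in both knockdown libraries than in both controls without passing either test, and BCL11A was lower in both. BCL11B, SATB1 and IKZF5 overlapped between the groups, and IKZF4 was almost silent. Of the 7 genes above the filter of a mean of 1 FPKM, limma-trend called 0 at an adjusted p of 0.05, where it called 0.205% of the 13172 genes tested (0.0683% higher and 0.137% lower), and 2 of the 7 had an unadjusted p under 0.05, as did 23.4% of all genes tested. Limma-voom called 1 of the 7, higher, where it called 7.74% of all genes, 1.94% higher and 5.8% lower, and 3 of the 7 had an unadjusted p under 0.05, as did 28.4% of all genes. With the sum of reads as library size those calls were 254 higher and 207 lower instead of 255 higher and 764 lower, and over all genes tested the limma-voom fold changes then had a median of 0.09 (log2), against -0.04 with the authors' totals. An exact two-sided permutation test of 2 against 2 libraries cannot go below p = 0.333, so none was run for single genes.

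**Figure D1:**
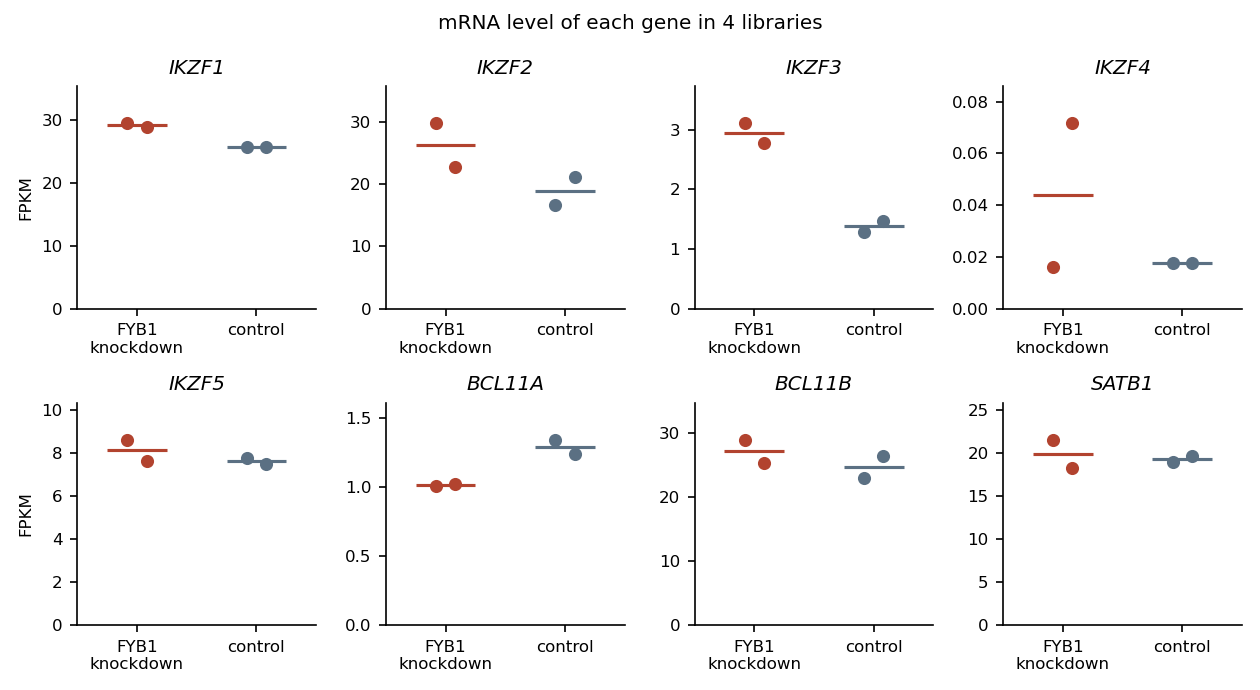
Level of each of the 8 genes in FPKM (vertical axes, each from 0, scaled per gene) in the 2 FYB1 knockdown libraries and the 2 control libraries. Points are libraries and lines are group means. The knockdown points lie above both controls for IKZF1, IKZF2 and IKZF3 and below both for BCL11A.

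IKZF3 encodes Aiolos, a factor of lymphocyte maturation that is degraded together with Ikaros when lenalidomide redirects the cereblon ubiquitin ligase. The gene spans chromosome 17, 39757715 to 39864188 on the minus strand (hg38), with 10008 bases of merged exon. The knockdown libraries had 574 and 569 IKZF3 reads (3.11 and 2.78 FPKM), against 215 and 246 reads in the controls (1.29 and 1.46 FPKM). The groups were far apart and each pair of libraries lay close together, with means of 2.94 ± 0.24 FPKM in the knockdown and 1.38 ± 0.12 FPKM in the controls (SD, n = 2 each), a ratio of 2.14. Limma-voom gave a log2 fold change of 1.09 ± 0.16 (SE; adjusted p = 0.0049), rank 47 by p among all genes tested. Limma-trend gave 0.73 ± 0.13 (adjusted p = 0.107, unadjusted p = 0.00202), and 490 genes had a fold change at least as large on that scale, which understates changes of genes with low values. The limma-voom call stayed past the threshold in all 10 alternatives run on that test, with log2 fold changes of 0.95 to 1.23. These alternatives include the fits without 1 library each (1.003 to 1.185) and some that were not planned. Limma-trend called IKZF3 in 2 of its 12 alternatives, those with a block. Its adjusted p was 0.31 with no filter on low values.

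IKZF3 was also higher relative to its own family in both knockdown libraries, a comparison in which the library totals cancel. Its level was 0.105 and 0.0958 of the IKZF1 level in the knockdown libraries, against 0.0501 and 0.0568 in the controls. As a share of the summed FPKM of the 5 Ikaros genes it made up 4.37% and 4.46% in the knockdown libraries, against 2.51% and 2.62% in the controls, so it remained a minor part of the family in every library. The nearest tested coding genes along chromosome 17 were MIEN1, 26.9 kb before it, and GSDMB, a gasdermin gene, 40.4 kb after it, and both are named after their values were seen. GSDMB stood at 8.93 and 8.59 FPKM in the knockdown libraries, against 6.26 and 7.39 FPKM in the controls (limma-voom adjusted p = 0.105). MIEN1 was called lower by limma-voom (adjusted p = 0.0359), at 9.35 and 14.0 FPKM against 19.9 and 17.9 FPKM in the controls, and that call ended without knockdown 1 (adjusted p = 0.122) and without control 1 (adjusted p = 0.191).

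**Figure D2:**
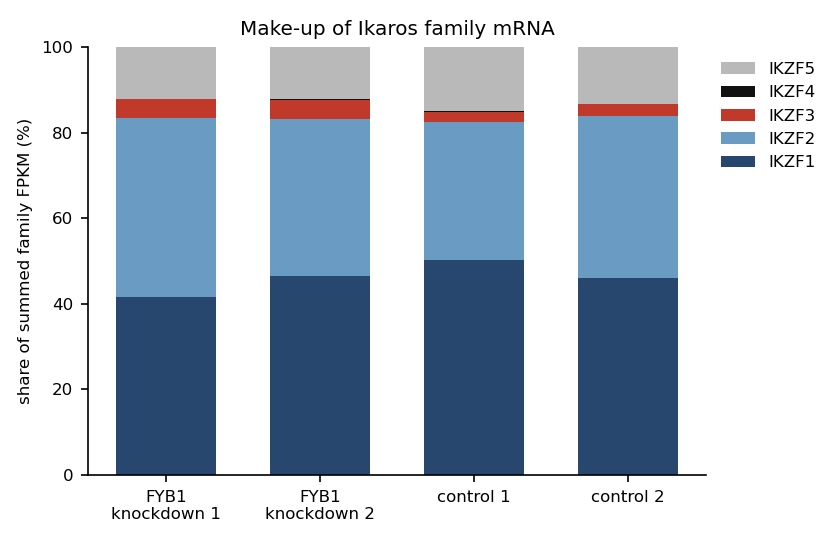
Share of the summed FPKM of IKZF1 to IKZF5 held by each gene (percent, vertical axis) in each library, knockdown libraries at the left. IKZF1 and IKZF2 fill most of every bar, and the IKZF3 band is 4.37% and 4.46% in the knockdown libraries and 2.51% and 2.62% in the controls. IKZF4, at most 0.115%, is barely visible.

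IKZF1 encodes Ikaros itself, the founding member and a regulator of lymphoid development (chromosome 7, 50304068 to 50405101, plus strand). It was the most abundant of the 8 genes on the FPKM scale in both group means, at 29.6 and 28.99 FPKM in the knockdown libraries, against 25.8 and 25.8 FPKM in the controls. The libraries of each group agreed closely and the groups were apart, yet the difference was small, with a ratio of 1.14. The log2 fold change was 0.18 ± 0.10 by limma-trend (adjusted p = 0.317) and 0.18 ± 0.12 by limma-voom (adjusted p = 0.34), tests that set a gene's spread partly from other genes at its level. Ranked among protein-coding genes of the table by FPKM, IKZF1 was above 91.9% of them in the knockdown mean and above 88.4% in the control mean.

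IKZF2 encodes Helios, a family member of the T lineage that is also found in regulatory T cells (chromosome 2, 212999691 to 213152427, minus strand). It stood at 29.9 and 22.8 FPKM in knockdown libraries 1 and 2, against 16.6 and 21.2 FPKM in controls 1 and 2. The groups did not overlap, but knockdown 2 lay near control 2, and the libraries within a group differed almost as much as the groups did. On the log2(FPKM + 1) scale the knockdown libraries differed by 0.38 and the controls by 0.34, beside a fold change of 0.45 ± 0.18 by limma-trend (adjusted p = 0.209). By limma-voom it was 0.48 ± 0.16 (adjusted p = 0.0886), and 1 library could decide the value. Without knockdown 2 limma-voom called it (log2 fold change 0.67, adjusted p = 0.0234), while it gave 0.28 without knockdown 1 (adjusted p = 0.336) and 0.30 without control 1 (adjusted p = 0.697). Relative to IKZF1 its level was 1.01 and 0.785 in the knockdown libraries and 0.644 and 0.824 in the controls, which overlap.

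IKZF5 encodes Pegasus, the most distant member by sequence (chromosome 10, 122990806 to 123008817, minus strand). It stood at 8.61 and 7.60 FPKM in the knockdown libraries, against 7.73 and 7.48 FPKM in the controls. The groups overlapped, with a log2 fold change of 0.08 ± 0.10 by limma-trend (adjusted p = 0.641). The direction turned without knockdown 1 (-0.0011) and once the length and GC dependence was removed (-0.0073). IKZF4, which encodes Eos, a partner of FOXP3 in mouse regulatory T cells (chromosome 12, 56007659 to 56038435, plus strand), had 2 and 10 reads in the knockdown libraries, against 2 and 2 reads in the controls. The exact 95% Poisson intervals, which cover counting error only, were 4.8 to 18.4 reads for knockdown 2 and 0.242 to 7.22 reads for each of the other libraries. These intervals overlap, which does not settle whether the libraries differ. IKZF4 did not pass the filter and was not tested. Together the 5 genes summed to 71.2 and 62.2 FPKM in the knockdown libraries, against 51.4 and 55.9 FPKM in the controls.

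BCL11B and BCL11A are paralogs with a marked difference in level in these cells. BCL11B, the factor of T lineage commitment (chromosome 14, 99169287 to 99271524, minus strand), stood at 28.9 and 25.3 FPKM in the knockdown libraries, against 22.9 and 26.4 FPKM in the controls. The groups overlapped, with a log2 fold change of 0.13 ± 0.13 by limma-trend (adjusted p = 0.539). It was 0.037 without knockdown 1 and 0.035 without control 1, and 0.22 without knockdown 2 and 0.23 without control 2. BCL11A, known for B cell development and globin switching (chromosome 2, 60450520 to 60555154, minus strand), stood at 1.01 and 1.02 FPKM in the knockdown libraries, from 474 and 533 reads, against 1.35 and 1.24 FPKM in the controls, from 570 and 531 reads. Both knockdown values were below both controls, with a ratio of means of 0.785. Its log2 fold change was -0.19 ± 0.17 by limma-trend (adjusted p = 0.514) and -0.35 ± 0.13 by limma-voom (adjusted p = 0.12). With the length and GC dependence removed, limma-voom called it lower (log2 fold change -0.67, adjusted p = 0.0163), an alternative chosen after seeing the data, and 1 other alternative of the 10 run on that test called it lower as well. The ratio of BCL11B to BCL11A was 28.6 and 24.7 in the knockdown libraries, against 17.0 and 21.2 in the controls. The size of this ratio rests on the merged exon length of BCL11A, and per kilobase of the longest annotated transcript the ratio of means was 8.22 in the knockdown and 5.88 in the controls.

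SATB1, the thymocyte chromatin organiser (chromosome 3, 18345387 to 18445588, minus strand), stood at 21.6 and 18.3 FPKM in the knockdown libraries, against 19.0 and 19.7 FPKM in the controls. The control values lay between the knockdown values, and the log2 fold change was 0.04 ± 0.12 by limma-trend (adjusted p = 0.862). Its sign turned without knockdown 1 (-0.075) and after removal of the length and GC trend (-0.17). Some 1.57% of its exon bases are shared with an overlapping gene on the same strand, TBC1D5.

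**Figure D3:**
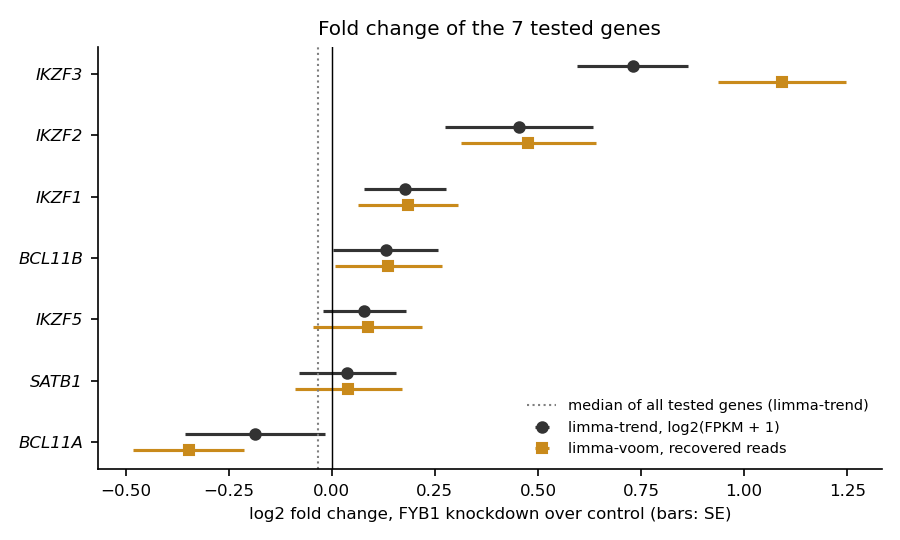
Log2 fold change of the 7 tested genes, FYB1 knockdown over control, by limma-trend on log2(FPKM + 1) (circles) and by limma-voom on recovered reads (squares). Bars are standard errors and the dotted line is the limma-trend median of all tested genes, -0.03. IKZF3 lies farthest to the right by both tests and BCL11A is the single gene to the left of 0.

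Of the 7 tested genes 3 had both knockdown values above both controls, where 26% of all tested genes did, and 1 of the 7 had both below, where 34.6% did, so that 4 of 7 did not overlap between the groups beside 60.6% of all tested genes. The knockdown mean was higher for 6 of the 7, beside 45.7% of all tested genes. The median log2 fold change of the 7 was 0.13 by limma-trend, beside -0.03 over all tested genes. Exon length moved with these values. Across the 13172 tested genes the log2 fold change and exon length had a Spearman correlation of 0.221, given as a description because genes share libraries and are not independent. In quintiles by exon length, the longest genes, 7539 to 44677 bases, had a median of 0.11, and the second quintile, 1751 to 3466 bases, had -0.17. Of the 7 genes, 6 belong to the longest quintile and IKZF5, with 4934 bases, to the third. With the dependence on exon length and GC content removed by a smooth fit, the limma-trend fold changes were 0.60 for IKZF3, 0.21 for IKZF2, 0.05 for IKZF1, 0.09 for BCL11B, -0.0073 for IKZF5, -0.17 for SATB1 and -0.44 for BCL11A, so that 4 of the 7 were higher in that setting. The part of length in these differences was otherwise not tested.

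**Figure D4:**
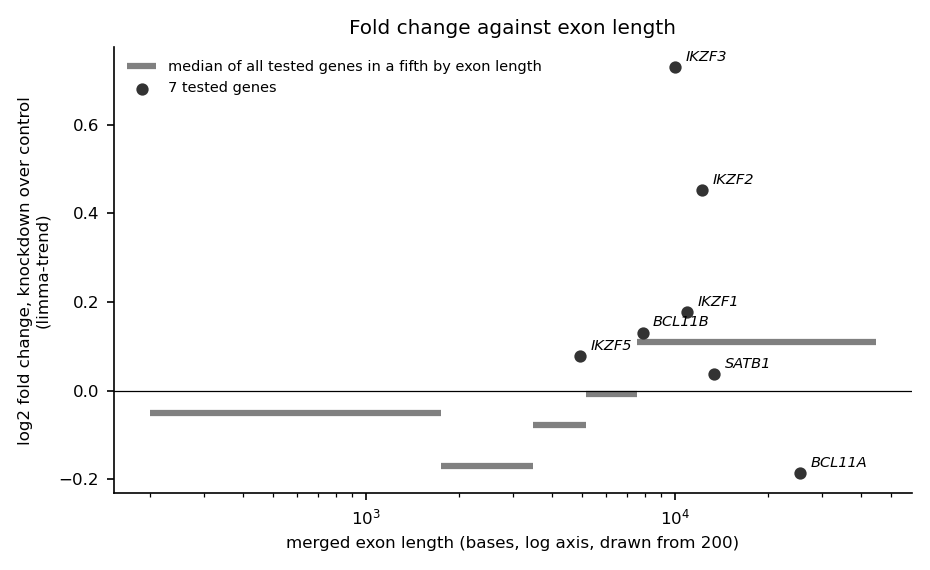
Log2 fold change by limma-trend (vertical axis) against merged exon length in bases (horizontal log axis) for the 7 tested genes as points. Grey bars are medians of all tested genes in quintiles by exon length, from -0.05 in the shortest to 0.11 in the longest. IKZF3, IKZF2, IKZF1, BCL11B and IKZF5 lie above the bar of their quintile, and SATB1 and BCL11A lie below it.

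The order of levels per kilobase of merged exon was alike in both groups except among neighbours. In the knockdown means it ran from IKZF1 (29.3 ± 0.41 FPKM) through BCL11B (27.1 ± 2.58), IKZF2 (26.3 ± 5.01), SATB1 (19.9 ± 2.30), IKZF5 (8.10 ± 0.71), IKZF3 and BCL11A (1.02 ± 0.01) to IKZF4 (0.0438 ± 0.0394; SD, n = 2 each). In the control means it ran from IKZF1 (25.8 ± 0.01 FPKM) through BCL11B (24.6 ± 2.42), SATB1 (19.3 ± 0.49), IKZF2 (18.9 ± 3.26), IKZF5 (7.61 ± 0.17), IKZF3 and BCL11A (1.30 ± 0.07) to IKZF4 (0.0176 ± 0.0001). In the knockdown libraries the range of IKZF2 held both values of BCL11B and of IKZF1. In the controls the ranges of IKZF1 and BCL11B overlapped, as did those of SATB1 and IKZF2 and those of IKZF3 and BCL11A. The level of BCL11A depends on the length used, because its merged exons cover 25422 bases while its longest annotated transcript has 7604. Per kilobase of the longest transcript BCL11A averaged 3.40 in the knockdown and 4.33 in the controls, beside 3.01 and 1.41 for IKZF3. The order of these 2 genes therefore rests on that choice, and so does the place of BCL11B. By the longest transcript BCL11B averaged 27.98 in the knockdown, below IKZF2 (34.4) and SATB1 (34.2). In the controls BCL11B averaged 25.5, below SATB1 (33.2) and above IKZF2 (24.8). IKZF1 stayed the highest in both groups, at 50.8 in the knockdown and 44.7 in the controls.

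By their profile over the 4 libraries, the genes near IKZF2 included SMCHD1, PKN2, ARFGEF1 and USP34. Likeness was the Euclidean distance between profiles of log2(FPKM + 1) centred on their mean, among 7201 coding genes that averaged 5 FPKM or more, and it was 0.0243 to 0.0614 for these genes. All 4 shared with IKZF2 the order knockdown 1, knockdown 2, control 2, control 1 from high to low, which follows from choosing them by these same values. SMCHD1, a chromatin protein of the inactive X chromosome, stood at 8.96 and 6.80 FPKM in the knockdown libraries, against 4.68 and 6.13 FPKM in the controls. Within each group, the longest quintile by exon length had the same order of libraries by median on the log2 scale. There knockdown 1 was 0.09 above knockdown 2, and control 1 was 0.05 below control 2. Knockdown 2 was not compared with control 2 in that quintile, and PKN2, with 6897 exon bases, lies outside it. IKZF1 lay closest to WEE1, VIRMA, PPRC1 and EFL1, with distances of 0.0165 to 0.0191. Within a distance of 0.1 of IKZF1 lay 373 coding genes, against 21 for IKZF2. Profiles were not scaled, so this count also depends on how much a gene differs between libraries.

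The partners of these factors were compared next, by lists chosen with earlier results of these data known. Over all tested genes 45.7% had a higher knockdown mean, and limma-voom called 1.94% higher and 5.8% lower. The unadjusted p was under 0.05 for 23.4% by limma-trend and 28.4% by limma-voom. The NuRD list had 5 of 14 tested genes with a higher and 9 with a lower knockdown mean, and a median log2 fold change of -0.09 by limma-trend. Limma-voom called 1 of them lower, CDK2AP1, a small subunit of the complex, at 8.86 and 11.6 FPKM in the knockdown libraries, against 22.2 and 21.8 FPKM in the controls (log2 fold change -1.11 ± 0.15, adjusted p = 0.00354). Neither test called any of the 8 CtBP, SIN3, CoREST and NCoR corepressors (median 0.06), of which 2 by limma-trend and 3 by limma-voom had an unadjusted p under 0.05. The list had 5 higher and 3 lower knockdown means. Its most abundant gene, KDM1A, a histone demethylase, averaged 49.8 ± 2.15 FPKM in the knockdown and 55.3 ± 0.22 FPKM in the controls, and CTBP1 averaged 24.3 ± 3.70 and 31.2 ± 0.50 FPKM in the same order (limma-voom adjusted p = 0.436 and 0.103).

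BCL11 proteins are also subunits of BAF remodelling complexes. Of 23 tested BAF and PBAF genes 16 had a higher and 7 a lower knockdown mean, with a median of 0.09. Of all tested genes 45.7% had a higher mean. Limma-voom called 1 of the 23 higher and 2 lower, beside 1.94% and 5.8% of all tested genes. SS18 rose to 6.97 and 5.85 FPKM in the knockdown libraries, against 3.998 and 4.02 FPKM in the controls (limma-voom adjusted p = 0.0268). DPF1 fell to 1.79 and 2.74 FPKM, against 4.29 and 3.75 FPKM in the controls, and BCL7C fell to 7.38 and 10.6 FPKM, against 14.1 and 13.4 FPKM in the controls (limma-voom adjusted p = 0.0331 and 0.0434). Each of these calls ended without knockdown 1 (adjusted p = 0.0832 for SS18, 0.131 for DPF1 and 0.121 for BCL7C) and without control 1 (0.18, 0.158 and 0.248 in that order). Those of SS18 and BCL7C ended also without control 2 (adjusted p = 0.0858 and 0.0741). The cereblon ligase list, through which lenalidomide acts on Ikaros and Aiolos proteins, had 0 of 5 genes called by either test (median -0.08). At an unadjusted p under 0.05 the list had 0 by limma-trend and 1 by limma-voom, beside 23.4% and 28.4% of all tested genes. Its most abundant gene, the adaptor DDB1, averaged 26.0 ± 2.88 FPKM in the knockdown and 30.3 ± 0.42 FPKM in the controls, and RBX1 averaged 18.1 ± 4.05 and 23.8 ± 0.98 FPKM in the same order (limma-voom adjusted p = 0.291 and 0.111).

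Among 17 other tested transcription factors and receptors of the T lineage, 11 had a higher and 6 a lower knockdown mean (median 0.13). Of all tested genes 45.7% had a higher mean. Limma-voom called 2 of the 17 higher and 1 lower, beside 1.94% and 5.8% of all tested genes. ZBTB7B, which directs the CD4 lineage, was called by limma-trend as well (adjusted p = 0.0398). It stood at 7.10 and 8.94 FPKM in the knockdown libraries, against 2.36 and 2.24 FPKM in the controls. Its limma-trend log2 fold change was 1.59 without knockdown 1 and 1.295 without knockdown 2, settings in which every limma-trend call ended. TOX2, an HMG-box factor, rose to 4.78 and 4.89 FPKM, against 2.53 and 2.62 FPKM in the controls (limma-voom adjusted p = 0.0178, and 0.0654 and 0.12 without knockdown 1 and without control 1). NOTCH3, a Notch receptor, fell to 6.58 and 7.21 FPKM, against 9.28 and 10.4 FPKM in the controls (limma-voom adjusted p = 0.035). The NOTCH3 call ended without knockdown 1 (adjusted p = 0.0956), without control 1 (0.243) and without control 2 (0.303).

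Genes described in other systems as regulated by Ikaros, BCL11 or SATB1 proteins had 3 calls by limma-voom, all lower, and 0 by limma-trend. The limma-trend p before adjustment was under 0.05 for 7 of the 13 tested, beside 23.4% of all tested genes. Over all genes tested limma-voom called 5.8% lower and 1.94% higher. Of 22 such genes 20 had a row and 13 were tested. Of these 5 had a higher and 8 a lower knockdown mean, with a median of -0.32, where 45.7% of all tested genes had a higher mean. The fetal globin genes HBG1 and HBG2, targets of BCL11A, had no row in the deposited values and could not be analysed. NOTCH3 is 1 of the 3 called. IGLL1, a chain of the pre-B cell receptor that Ikaros represses in mouse pre-B cells, fell to 123 and 185 FPKM in the knockdown libraries, against 661 and 599 FPKM in the controls (log2 fold change -2.06 ± 0.18, limma-voom adjusted p = 0.000536, and limma-trend adjusted p = 0.0588). MYC, a growth regulator, fell to 21.7 and 24.4 FPKM, against 42.1 and 37.7 FPKM in the controls (limma-voom adjusted p = 0.00802, and 0.0982 without control 1). Whether any of these differences is linked to the level of IKZF3 was not tested.

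Markers of cell identity moved too, and their part in the results above was not tested. Of the 14 T cell markers 4 had a higher and 10 a lower knockdown mean (median -0.29), where 45.7% of all tested genes had a higher mean. Limma-voom called 1 of the 14 higher and 3 lower, beside 1.94% and 5.8% of all tested genes. CD28, a costimulatory receptor, rose to 11.4 and 9.60 FPKM in the knockdown libraries, against 6.05 and 5.80 FPKM in the controls (limma-voom adjusted p = 0.0121, and 0.0537 without knockdown 1). CD3D, a chain of the T cell receptor complex, fell to 224 and 299 FPKM, against 478 and 419 FPKM in the controls (limma-voom adjusted p = 0.02, and 0.0703 and 0.168 without knockdown 1 and without control 1). TRBC1 fell to 469 and 647 FPKM, against 1404 and 1237 FPKM in the controls (limma-voom adjusted p = 0.00428), and TRBC2 to 132 and 166 FPKM, against 256 and 214 FPKM. The call of TRBC2 (adjusted p = 0.0277) ended without knockdown 1 (0.103) and without control 1 (0.318), and reads of these near-identical constant regions are uncertain. In bulk RNA, fewer cells that express a gene and less RNA per cell cannot be told apart.

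Each of the other marker lists summed to less than the T cell list in every library. Limma-voom called 1 of their 8 tested genes, beside 7.74% of all tested genes. B cell markers summed to 13.3 and 17.7 FPKM in the knockdown libraries, against 27.0 and 23.9 FPKM in the controls, nearly all of it CD79A, which limma-voom called lower (adjusted p = 0.0297, and 0.113 and 0.167 without knockdown 1 and without control 1). Myeloid markers summed to 52.8 and 65.9 FPKM in the knockdown libraries, against 75.0 and 65.2 FPKM in the controls. CEBPE, a granulocyte factor, averaged 55.0 ± 8.94 FPKM in the knockdown and 65.3 ± 6.59 FPKM in the controls, and CEBPA 3.88 ± 0.29 and 4.24 ± 0.33 FPKM in the same order, neither called (limma-voom adjusted p = 0.267 and 0.666). NK markers summed to 15.4 and 17.0 FPKM in the knockdown libraries, against 15.1 and 14.6 FPKM in the controls, almost all of it PRF1, perforin (limma-voom adjusted p = 0.513), while NCAM1 stayed below the filter at 0.192 and 0.142 FPKM against 0.222 and 0.257 FPKM. Erythroid and megakaryocyte markers summed to 12.5 and 14.1 FPKM in the knockdown libraries, against 14.4 and 13.2 FPKM in the controls, led by EPOR and GP1BA (limma-voom adjusted p = 0.225 and 0.385).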

How the data were processed

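TruSeq RNA libraries were prepared from Trizol-extracted RNA, per the labels' protocols, and reads were aligned with HISAT2 2.0.5 to hg38, per the submitters' processing notes. The counting program, annotation, strand setting and read length are not stated there. The authors deposited 1 normalised value per gene and library, identified here as FPKM: after multiplication by merged GENCODE 29 exon length, 100% of values above 0 came out as whole reads (tolerance 0.001) once scaled by a constant per library. All 28274 identifiers matched the annotation.

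Groups were compared by limma-trend (limma 3.58.1, R 4.3.3) on log2(FPKM + 1) over genes averaging 1 FPKM or more, with the group as the single term and Benjamini-Hochberg adjustment over all genes tested (threshold 0.05). Limma-voom on recovered reads, scaled by the totals implied in the authors' values, was a named second test. Both were also run on simulated reads, drawn with a fixed extra spread for all genes and without a length trend. That run does not show how the tests behave on these data. Fold changes are knockdown over control. Coding sequences are those of the longest principal transcript, aligned with MAFFT 7.526.

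Length and GC content were removed with mgcv 1.9.3. The 8 genes and all lists were chosen with earlier results of these data known. Named genes are the 8, FYB1, the 5 coding genes nearest in profile to the gene with the largest change among those averaging 5 FPKM or more and to the most abundant gene, and from each list those past limma-trend, up to 4 past limma-voom, or otherwise the 2 most abundant. Some genes that this rule names are not reported here. Alternatives are given with the closing observations.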

Additional observations from a re-analysis of the deposited data

How the results depend on the processing

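IKZF3, IKZF2, IKZF1 and BCL11B kept a higher and BCL11A a lower knockdown mean in every alternative run. The limma-trend count of genes past the threshold, 27, was 1019 by limma-voom on recovered reads, 45 with quantile normalization, 76 with summed reads as the total, 171 after removal of the length and GC trend, 181 with a mean of at least 5 FPKM, 0 with no filter (3938 at an unadjusted p under 0.05, and 123 by limma-voom), and 0 to 406 without 1 library each (at the low end 2205 and 4841 genes at an unadjusted p under 0.05, without knockdown 1 and without knockdown 2). Limma-trend called 0 of the 8 genes, limma-voom 1 (IKZF3), and limma-trend in the replicate block 1 (IKZF3, adjusted p = 0.0254). The limma-voom count, 1019, was 461 with the sum of reads, 1677 after removal of the length and GC trend, and 102 to 3877 without 1 library each, with 1 to 2 of the 8 genes called, and 2 after removal of the trend. Replicate numbers do not mark pairs in the labels, and the deviations of same-numbered libraries had a correlation of -0.21. With the number as a replicate block limma-trend called 781 genes and limma-voom 1072, and with the crossed pairing, chosen after seeing the data, they called 1910 and 4007 genes. Of the 8 limma-trend then called 2, IKZF3 (adjusted p = 0.025) and IKZF2 (0.0336), and limma-voom 3, IKZF3, IKZF2 (0.000152) and BCL11A (0.0205).

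Small fold changes turned sign. After removal of the length and GC trend IKZF5 was -0.0073 by limma-trend and -0.0057 by limma-voom, SATB1 -0.17 and -0.21, WEE1 -0.014 and -0.026, VIRMA -0.036 and -0.042, and CEBPA 0.091 and 0.10. With quantile normalization limma-trend gave 0.045 for CEBPE and 0.12 for KDM1A. With the sum of reads CEBPA was 0.0065 by limma-trend and 0.0085 by limma-voom. Without 1 library each, IKZF5 lay between -0.0011 and 0.16 by limma-trend and -0.0013 and 0.18 by limma-voom, and SATB1 between -0.075 and 0.15 and -0.079 and 0.16. These counts cover the tested genes among the 43 named (IKZF4 and NCAM1 were not tested) and all alternatives. Limma-voom lost 39 calls, gained 26 and turned 8 signs. Limma-trend lost 6, gained 67 and turned 10, with the limma-voom fit itself counted among its alternatives, so some gains are limma-voom calls. The cause was not tested. With 2 libraries a group the spread rests on few values, and IKZF4, with at most 10 reads, was below the filter and not tested.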
